A study of Mus musculus with 8 samples.

Results

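Quiescent neural stem cells (NSCs) of the dentate gyrus (DG) were taken from a single-cell matrix by their own expression, as barcodes that carried astroglial RNA and Hopx but little RNA of mature astrocytes, of other lineages or of the cell cycle. A barcode was a member when it held over 500 genes and under 10% mitochondrial UMIs (unique molecular identifiers, which count RNA molecules), at least 3 of Aldoc, Slc1a3, Slc1a2, Gja1 and Ntsr2, and a UMI of Hopx. S100b, Aqp4, Gjb6, Grin2c and Hsd11b1 together had to stay under 0.1% of its UMIs. It could hold at most 1 of Mog, Mag, Mobp, Cx3cr1, Cldn5, Pdgfra, Stmn2 and Eomes, and at most 2 of Mcm2 to Mcm7, Pcna, Top2a, Cdk1 and Ccnb1. Of 26036 barcodes, 24376 (93.6%) passed the limits on genes and mitochondrial UMIs, and 2160 of these (8.86%) were members.

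Hippocampal NSCs are radial glia-like cells of the subgranular zone that give rise to granule neurons through dividing progenitors. Most of them rest outside the cell cycle at any time, and in that state they share much of their expression with astrocytes, from which low levels of mature astrocyte genes help to tell them apart. Notch and bone morphogenetic protein (BMP) signals, the latter acting through Id proteins, are known to hold NSCs in quiescence.

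All mice were heterozygous for Ki67-creERT2, Nestin-GFP and a Cre-dependent tdTomato reporter on a mixed background, and in every age group males and females were pooled, treated with tamoxifen and culled soon afterwards. Green fluorescence came from a Nestin promoter transgene, and red fluorescence arose in cells that expressed Ki67, a gene of dividing cells, while tamoxifen was present, and in their progeny. There was 1 experiment at 1 month of age, 3 at 2 months and 3 at 6–8 months (6 months in the labels), sequenced as 8 droplet libraries. The libraries of 1 and 6–8 months were made with chemistry Version 3 and those of 2 months with Version 2, so that age and chemistry cannot be told apart in any comparison with 2 months. The first 2-month experiment gave 2 libraries, one of tdTomato+ cells together with double-negative cells and one of GFP+tdTomato– cells, whereas each other library held GFP+tdTomato+ and GFP+tdTomato– cells together, so shares of cells follow the sort as well as the tissue. The experiment, a pool of mice, was the replicate.

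Members made up 27.2% of the passing barcodes at 1 month (895 of 3288, exact 95% binomial interval 25.7 to 28.8%). In the first 2-month experiment they were 18 of 1542 barcodes in the tdTomato+ library (1.17%, 0.693 to 1.84%) and 396 of 2647 in the tdTomato– library (15%, 13.6 to 16.4%). The other two 2-month libraries held 140 of 4059 (3.45%) and 65 of 1785 (3.64%). The 6–8-month libraries held 141 of 2519 (5.6%), 166 of 3372 (4.92%) and 339 of 5164 (6.56%). The 1-month share was thus above that of every other library, with intervals that did not overlap and that cover counting error only. With 1 experiment at 1 month, the smallest two-sided p that an exact permutation test against the 3 experiments of 6–8 months could give is above the usual threshold, and the share was not tested.

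**Figure D1:**
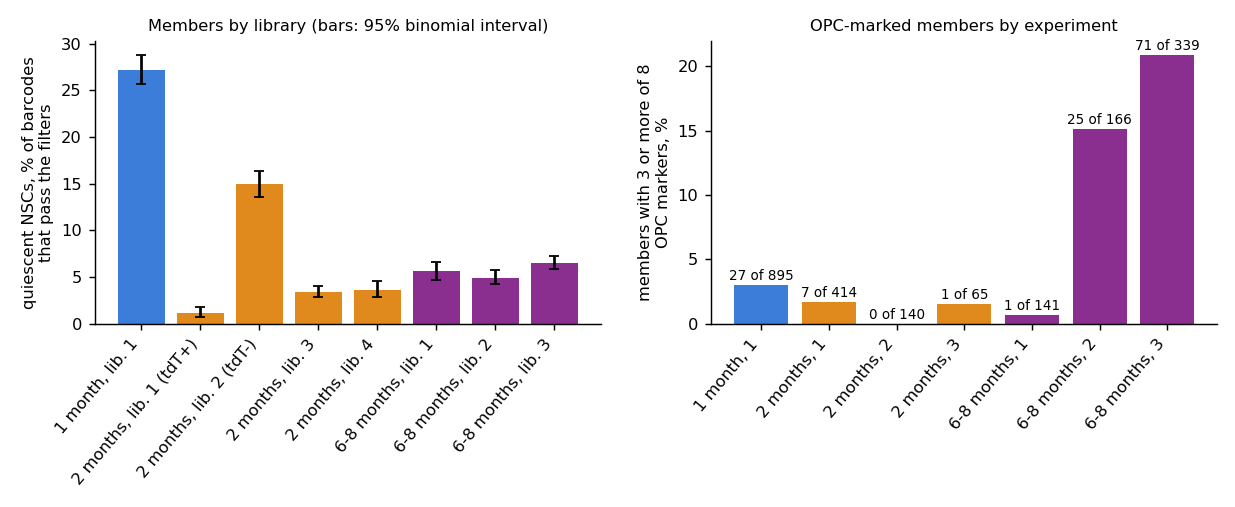
Left, quiescent NSCs as a percentage of the barcodes that passed the filters in each of 8 libraries, with exact 95% binomial intervals; right, the percentage of quiescent NSCs in each of 7 experiments that held at least 3 of 8 markers of oligodendrocyte precursor cells (OPCs), with counts above the bars. The 1-month library held the highest share of members (27.2%), and OPC-marked members were concentrated in the second and the third 6–8-month experiment (15.1 and 20.9%).

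Depth followed chemistry. The libraries held 26464703 UMIs at 1 month, between 4861883 and 9637578 at 2 months and between 13739260 and 43826338 at 6–8 months. The median member held 5599 UMIs and 2308 genes at 1 month, 2526, 1343.5 and 2004 UMIs (1312, 840 and 1169 genes) in the 2-month experiments, and 3729, 5770.5 and 6925 UMIs (1718, 2423 and 2846 genes) in the 6–8-month experiments. The median mitochondrial share lay between 4.28 and 5.39% in all 7 experiments. Summed over members, the experiments gave 5090898 UMIs at 1 month, 1136370, 209570 and 136460 at 2 months, and 519932, 977340 and 2399000 at 6–8 months. The levels of the second and the third 2-month experiment therefore rest on the fewest molecules. A gene without a UMI may stand at up to 14.3 and 22 CPM (counts of the gene scaled to a common total of UMIs) there, and at up to 0.589 CPM at 1 month (3 counts). No barcode sequence was shared by members of different libraries, although up to 13 were shared by any pair of libraries among all barcodes.

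Marker lists were used to check the name of the cells. The 28 NSC markers include Hopx, Aldoc and Slc1a3, which the rule used, so that all 2160 members held at least 3 of them is no check. The median was 15 of 28 in the members without OPC markers (as defined next). The summed level of the NSC list was 20400 to 27100 CPM in members and 19900 to 28800 CPM in astrocyte-like cells without OPC markers. It therefore did not part these 2 groups, while all other cells together stood at 2170 to 6030 CPM. Astrocyte markers were also common, and 1506 members (69.7%) held at least 3 of 16, between 25.7 and 83.8% by experiment, as did 1441 of the 2028 members without OPC markers. The list holds the 5 mature genes that the rule limits, and its summed level was 1160 CPM at 1 month, 1360, 1350 and 1120 CPM at 2 months and 1760, 1340 and 1660 CPM at 6–8 months, against 4500 to 6390 CPM in astrocyte-like cells without OPC markers. No member held 3 of 9 microglial or 3 of 7 ependymal and choroid plexus markers, 11 held 3 of 9 vascular markers, and 257 (11.9%) held 3 of 12 progenitor and neuroblast markers. Of 10 oligodendrocyte markers, 162 members (7.5%) held 3 or more, and 57 of these were among the 140 members of the second 2-month experiment (40.7%). The summed level of that list was 2420 CPM in that experiment, 376 and 791 CPM in the other 2-month experiments, 154 CPM at 1 month and 277, 278 and 366 CPM at 6–8 months. The microglial list stayed between 28.2 and 52.5 CPM with 4 of its 9 genes at 0 in every experiment.

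At least 3 of the 8 OPC markers Pdgfra, Cspg4, C1ql1, Gpr17, Olig1, Olig2, Sox10 and Tnr were held by 132 members (6.11%), and these did not lie at the edge of a continuous range. Of all members 1554 held 0 of the 8 markers, 428 held 1 and 46 held 2, then 5, 1 and 0 members held 3, 4 and 5, and 6, 26 and 94 held 6, 7 and 8. OPC-marked members were 27 of 895 at 1 month (3.02%), 7, 0 and 1 in the 2-month experiments, and 1 of 141, 25 of 166 and 71 of 339 at 6–8 months (0.709, 15.1 and 20.9%). The summed OPC marker level over all members, led by Olig1, was 348 CPM at 1 month, 255, 162 and 198 CPM at 2 months and 179, 1890 and 2910 CPM at 6–8 months, and it was 52.0, 75.8, 162, 129, 121, 132 and 111 CPM in the same order once OPC-marked members were left out. In Version 3 libraries the OPC-marked members had a median of 1 UMI of Hopx (74.2% of 124 had exactly 1), whereas the other members had a median of 31 (0.494% of 1417 had exactly 1). The rule's only OPC gene is Pdgfra, and it allows 1 lineage gene. The age comparisons below are therefore given for all 2160 members and, as an alternative chosen after the data were seen, for the 2028 members without this mark.

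Near the limits of the rule, 325 members held 1 UMI of Hopx while 1807 barcodes met every other clause with none. The members with 1 UMI had a median of 2221 UMIs and those barcodes one of 6870. Similarly, 271 members held 3 of the 5 astroglial genes and 118 otherwise fitting barcodes held 2, and 175 members held 2 cell-cycle genes and 67 such barcodes held 3. For other-lineage genes, 405 members held 1 and 54 otherwise fitting barcodes held 2. For the mature astrocyte genes, 147 members lay between 0.08 and 0.1% of UMIs, 106 otherwise fitting barcodes lay between 0.1 and 0.12%, and 1010 members held no UMI of those genes at all.

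The genes of the rule were high because the rule asked for them, and their levels are given as a description with no test. Hopx (GRCm38 chr5:77086988-77115121, minus strand), a homeodomain-only protein of quiescent stem cells, stood at 5820 CPM at 1 month, at 978, 1330 and 894 CPM at 2 months and at 6110, 4860 and 4430 CPM at 6–8 months. All 3 Version 2 experiments lay below all 4 Version 3 experiments, and the same order held in astrocyte-like cells (176 to 312 against 639 to 2370 CPM over all of them, 260 to 327 against 3120 to 4060 CPM without OPC-marked cells) and in all other cells (16.8 to 60.3 against 146 to 427 CPM). Aldoc (chr11:78322968-78327781, plus strand), the brain form of the glycolytic enzyme aldolase, varied little, from 3270 to 4010 CPM over the 7 experiments. Slc1a3 (chr15:8634124-8710764, minus strand), a glutamate transporter of radial glia and astrocytes, ranged from 3200 to 4590 CPM.

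Notch2 and Riiad1, given as markers of these cells but not used by the rule, were also high. Notch2 (chr3:98013527-98150361, plus strand), a Notch receptor that keeps NSCs quiescent, stood at 393 CPM at 1 month, 368, 682 and 535 CPM at 2 months and 694, 214 and 328 CPM at 6–8 months, and the ages overlapped. Riiad1 (chr3:94464983-94480341, minus strand) stood at 198 CPM at 1 month, 179, 310 and 213 CPM at 2 months and 113, 95.2 and 88.4 CPM at 6–8 months, where all experiments were below those of the younger ages. In cells thinned to 1500 UMIs, Notch2 was detected in 39.4% and Riiad1 in 20.6% of 1885 members (median of 4392 UMIs before thinning). The shares were 9.54 and 0.298% of 671 microglia-like cells (2980 UMIs) and 1.25 and 0.191% of 6793 oligodendrocyte-like cells (4620 UMIs). Whether the UMIs in these 2 other kinds of cells are free RNA or their own expression was not tested. Id4 was detected in 77.4% of members against 0.596 and 1.85%. These shares leave out OPC-marked members and the 143 members under 1500 UMIs; the second 2-month experiment kept only 49 members.

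**Figure D2:**
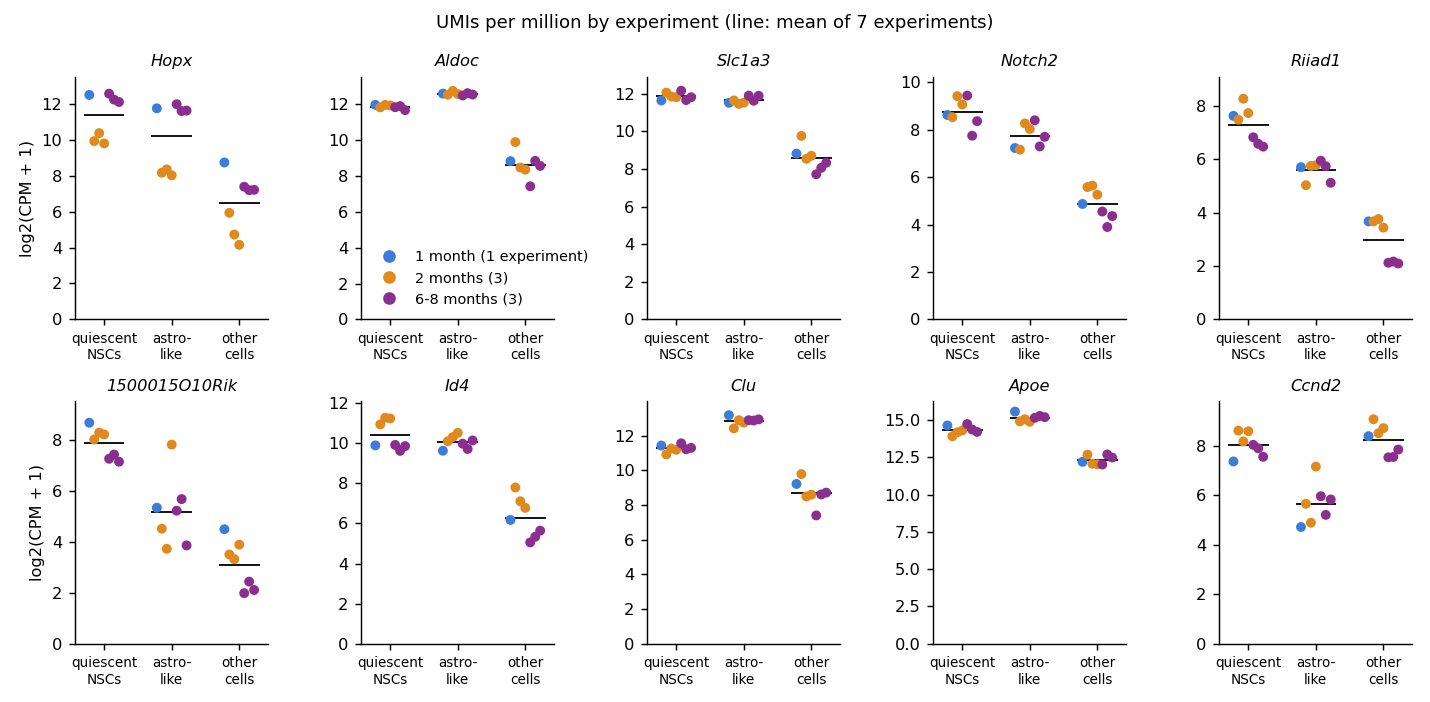
Levels of 10 genes as log2(CPM + 1), 1 point per experiment, in quiescent NSCs, in astrocyte-like cells without OPC markers and in all other passing cells, with the mean of 7 experiments as a line and age by color. Hopx, Notch2, Riiad1, 1500015O10Rik and Id4 were higher in quiescent NSCs than in all other cells in 7 of 7 experiments, whereas Ccnd2 was near the level of the other cells.

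Relative to all other passing cells of the same experiment, 214 of 4152 genes (5.15%) were at least 2-fold higher in members in 7 of 7 experiments and 243 (5.85%) at least 2-fold lower, and 231 (5.55%) and 286 (6.87%) of 4162 without OPC-marked members. Since the members were picked by expression, folds are a description over the 7 experiments, on the log2(CPM + 1) scale, with the SD between experiments. Outside the rule, 1500015O10Rik (chr1:43730602-43742578, plus strand), which encodes the secreted peptide precursor augurin, led with 27.2-fold (log2 4.76 ± 0.41 SD). Its level was 413 CPM at 1 month, 261, 315 and 300 CPM at 2 months and 154, 173 and 142 CPM at 6–8 months, against 2.97 to 21.7 CPM in the other cells. Hopxos (24.7-fold) is annotated as antisense to Hopx at chr5:77094532-77102303, within the Hopx gene. Entpd2, an ectonucleotidase (23.9-fold), Ass1, an enzyme of arginine synthesis (23.5-fold), and Riiad1 (19.7-fold) followed.

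Id4, a repressor of proneural factors, was 17.4-fold higher (log2 4.12 ± 0.55), and Notch2 14.5-fold (3.86 ± 0.57). Also among the 20 genes with the largest folds were the astroglial membrane protein gene Mlc1 (16.2-fold), the mitochondrial glutamate carrier Slc25a18 (13.7-fold) and the intermediate filament gene Gfap (13.7-fold). The secreted Wnt inhibitor gene Frzb was 13.9-fold, tenascin C (Tnc) 12.3-fold and Islr 12.1-fold higher. Pawr (17.2-fold), Naaa (14.1-fold), Shroom3 (13.1-fold), Prex2 (12.3-fold) and 3 unnamed or noncoding loci, A330048O09Rik (14.7-fold), E330013P04Rik (13.4-fold) and Gm11681 (12.3-fold), completed the list. Of factors known from NSC quiescence and activation, Clu was 5.97-fold and Apoe 4.07-fold higher, each in 7 of 7 experiments. Among the genes lowest relative to other cells were Cldn11 (a mean of 31.9 against 1200 CPM) and Mal (19.4 against 1470 CPM), genes of myelin, a lineage that the rule limits through Mog, Mag and Mobp. The other cells included 6989 oligodendrocyte-like ones.

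Astrocyte-like cells met the rule apart from Hopx and held at least 0.1% of mature astrocyte UMIs; 763 of 2270 of these were OPC-marked, with 232 of 338 and 376 of 502 in the second and the third 6–8-month experiment, so folds are given without OPC-marked cells in both groups. Then 47 of 3637 genes (1.29%) were at least 2-fold higher in members in 7 of 7 experiments and 105 (2.89%) at least 2-fold lower, against 41 (1.05%) and 86 (2.2%) of 3912 with them. Where 1 of the groups had no UMI in an experiment, levels are given in place of folds. Mycn, a growth-promoting transcription factor, stood at 35 to 91 CPM in members and 0 to 10.8 CPM in astrocyte-like cells, the Wnt modulator Sfrp1 at 62 to 161 against 0 to 42.7 CPM, and the immediate early gene Egr1 at 47.7 to 280 against 0 to 48.8 CPM, each higher in members in 7 of 7 experiments. Ccnd2, a D-type cyclin of G1, was 5.59-fold higher (2.48 ± 0.67). Notch2 was 2.17-fold higher (1.12 ± 0.24), Id4 1.37-fold (0.45 ± 0.40, higher in 6 of 7) and Slc1a3, a gene of the rule, 1.24-fold (0.31 ± 0.08). Igfbp2 stood at 0 to 23.9 CPM in members and 93.2 to 429 CPM in astrocyte-like cells, the potassium channel gene Kcnk1 at 0 to 7.78 against 119 to 209 CPM, and the phosphofructokinase gene Pfkp at 0 to 15.6 against 78.6 to 162 CPM. Aldh1a1 was also lower in members (−3.61 ± 1.09), as were, by less, Id2 (−1.51 ± 0.23), Clu (−1.49 ± 0.16), Apoe (−0.74 ± 0.20) and Aldoc (−0.61 ± 0.11). The differences of the last 3 genes held in 7 of 7 experiments only without OPC-marked cells. Over all cells of both groups Clu was lower in 5 of 7 experiments (−0.74 ± 0.80), Apoe in 4 (−0.17 ± 0.58) and Aldoc in 4 (0.08 ± 0.72). Aldoc is one of the 5 astroglial genes of which both groups had to hold at least 3.

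The third neighbor were 391 cells that met every clause but the cell-cycle limit (181 at 1 month, 38, 8 and 5 at 2 months, 26, 48 and 85 at 6–8 months). Against these, 239 of 4131 genes (5.79%) were at least 2-fold higher in members in 7 of 7 experiments and 265 (6.41%) lower, and without OPC-marked members 239 (5.83%) and 277 (6.75%) of 4101. The cycling cells of the second and the third 2-month experiment, 8 and 5 cells, held only 30329 and 22455 UMIs, and genes with no UMI in some experiments are given by their levels. Agt, which encodes angiotensinogen, stood at 69.5 to 129 CPM in members and at 0 to 7.57 CPM in the cycling cells, and Lcat, an enzyme of cholesterol esterification, at 91.1 to 181 against 0 to 14.7 CPM. The matrix protein gene Sparc stood at 830 to 1100 against 0 to 157 CPM. Among the genes lowest in members were some of DNA replication and mitosis, and the cell-cycle clause chose the groups by such genes. Pbk stood at 0 to 4.77 CPM in members against 112 to 534 CPM, Ube2c at 0 to 7.33 against 89.1 to 730 CPM, and Rrm2 at 0 to 22 against 188 to 623 CPM. Clu (4.05 ± 1.34), Id4 (2.69 ± 0.50), Apoe (2.39 ± 0.34) and Notch2 (1.72 ± 0.79) were each higher in members in 7 of 7 experiments. Ccnd2 was lower in 7 of 7 (−2.85 ± 0.28). Hopx, which both groups had to hold, was higher in members by 1.92 ± 0.16, and the median cycling cell was deeper (11336 against 5599 UMIs at 1 month).

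Among members of 1 experiment, variation was described by the Fano factor (variance over mean of UMIs) in cells thinned to 1500 UMIs, for 1018 genes with a mean of at least 0.2 UMIs in 5 or more experiments. OPC-marked members were left out of the factors and means given here. The factor is 1 where only sampling of molecules spreads the cells. Beyond that it can grow with a gene's mean level, for which the ranking was not adjusted. Malat1, the first gene below, had means of 69.8 to 200 UMIs, and its median factor was 23.4 at 1000 UMIs. The nuclear noncoding RNA Malat1 led with a median over experiments of 35.1 (22.2 to 57.1), followed by the protease inhibitor gene Cst3 (10.7) and by Apoe (6.81), which carries lipids. Of immediate early genes, Fos stood at 6.81, Junb at 3.99, Jun at 3.55 and Dusp1 at 3.31. These are known for their rapid response to stimuli. Mean Fos per thinned cell was 1.12 UMIs at 1 month, 1.01, 2.1 and 5.14 at 2 months, and 0.574, 2.28 and 2.14 at 6–8 months, so it differed more between experiments of 1 age than between ages.

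Other variable genes were the metallothioneins Mt1 (4.34) and Mt3 (3.48), Tmsb4x (5.94), the mitochondrial transcripts mt-Atp6, mt-Co3 and mt-Cytb (3.82, 2.94 and 2.81), and Thrsp (2.71), a lipogenic gene of NSCs. Xist, the RNA of the inactive X chromosome, had a median of 3.84, in pools of male and female mice. The same 15 genes were compared with those at 1000 UMIs, and 13 were shared.

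**Figure D3:**
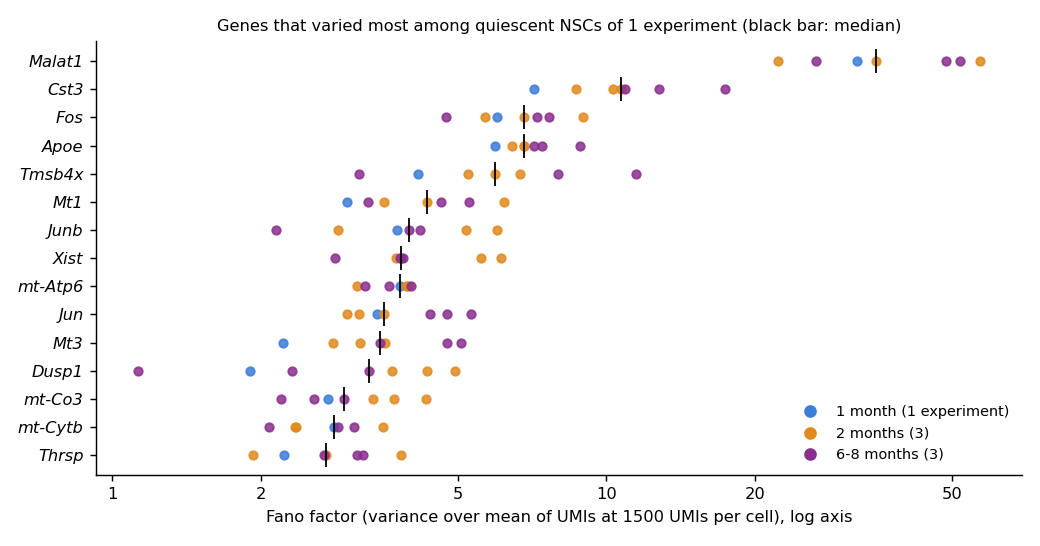
Fano factor (variance over mean of UMIs per cell at 1500 UMIs, log axis) in quiescent NSCs without OPC-marked members, for the 15 genes with the largest median over 7 experiments, with 1 point per experiment colored by age and a black bar for the median. Malat1 stood apart at a median of 35.1, and Fos, Junb, Jun and Dusp1 are immediate early genes.

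Age was compared between 6–8 months and 1 month, both Version 3, to ask how quiescent NSCs differ between juvenile and mature mice. Quiescent NSCs of 6–8 months had more Wls, Fbln5 and Slc38a3 RNA and less Id3, Id1 and Ifitm2. UMIs were summed per experiment and tested with edgeR's quasi-likelihood method over all 7 experiments, with Benjamini-Hochberg adjustment over all genes tested. With a single 1-month experiment, that experiment was assumed to vary like the others. A filter on detection came first, and through it a gene such as Fbln5 entered only by the age where it was high. The filter is therefore not independent of the contrast, and the numbers of rises and falls depend on it. Genes were tested where at least 20% of the members of either age had a UMI. Of 4416 such genes, 64 passed at 0.05, 45 of them higher (1.02% of genes tested) and 19 lower (0.43%) at 6–8 months, and 405 had an unadjusted p under 0.05. DESeq2 called 22. The 64 include the rule genes Gjb6 and S100b, for which this is no test. The count was 28 (16 higher, 12 lower) in members without a UMI of Fbln5, 31 with total UMIs and 6 of 1111 genes in cells thinned to 1500 UMIs. Without OPC-marked members 72 of 4077 passed, 50 higher (1.23%) and 22 lower (0.54%), and 41 genes were shared (64.1% of the 64 and 56.9% of the 72). The count over all members rested on single experiments. It was 17 without the third and 41 without the second 6–8-month experiment, 117 without the first, and 109 without the first 2-month experiment, and without OPC-marked members it was 28 without the third 6–8-month experiment and 142 and 126 without the first and the second 2-month experiment.

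Wls (chr3:159839672-159938664, plus strand) encodes the carrier that takes Wnt proteins to the cell surface. It stood at 7.27 CPM at 1 month, 15.8, 19.1 and 29.3 CPM at 2 months and 69.2, 53.2 and 61.3 CPM at 6–8 months, and the 3 ages did not overlap. Here and for the genes below, such an order of the experiments is a description. The share of all tested genes with the same order was not counted, and 2 months differs in chemistry. The rise from 1 month was 2.98 ± 0.36 (log2 ± SE, adjusted p = 1.9e-05 with edgeR, 3.06 without OPC-marked members). Fbln5 (chr12:101746565-101819055, minus strand), a glycoprotein of elastic fibers, stood at 8.25 CPM at 1 month, 6.16, 9.54 and 22 CPM at 2 months and 65.4, 44.0 and 76.3 CPM at 6–8 months. The 6–8-month experiments were all above the others, by 2.86 ± 0.38 over 1 month (edgeR, adjusted p = 8.6e-05). With OPC-marked members left out, Fbln5 was found in thinned cells in 1.05% of members at 1 month, 1.27, 0 and 1.96% at 2 months and 6.98, 5.80 and 10.2% at 6–8 months. The unthinned shares of the same set were 4.15, 1.72, 1.43, 3.12, 16.4, 19.9 and 38.8% in the same order. In thinned microglia-like and oligodendrocyte-like cells the shares were 0 of 671 and 0.0442%. Fbln5 was thus detected in a minority of these members at every age.

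Slc38a3 (chr9:107650634-107669530, minus strand), a glutamine transporter, stood at 10.8 CPM at 1 month, 18.5, 28.6 and 14.7 CPM at 2 months and 80.8, 34.8 and 58.4 CPM at 6–8 months, again with all 6–8-month experiments above the rest (2.31 ± 0.39 over 1 month, edgeR, adjusted p = 0.0011). Gm8797, a predicted gene, rose by 2.76 ± 0.38 (adjusted p = 8.6e-05, edgeR), from 10.8 CPM at 1 month to 53.9, 66.5 and 99.6 CPM, levels that overlapped with 44.0, 85.9 and 66.0 CPM at 2 months. Wls, Fbln5, Gm8797 and Slc38a3 passed under every alternative in which they were tested, with and without OPC-marked members. The largest adjusted p over these alternatives was 0.0033 for Wls, 0.0076 for Fbln5 and 0.032 for Slc38a3. Slc4a4, a sodium bicarbonate cotransporter, stood at 63.4 CPM at 1 month, 63.4, 47.7 and 36.6 CPM at 2 months and 221, 186 and 177 CPM at 6–8 months (1.55 ± 0.28, adjusted p = 0.0029, edgeR). Luzp2 had the same order, with 113 CPM, then 149, 110 and 95.3 CPM, then 469, 401 and 447 CPM (1.90 ± 0.28, adjusted p = 0.00024, edgeR).

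Cntn1, S100b and Matn4, also among the 10 largest rises, moved with the OPC-marked members. Cntn1, a neural adhesion molecule, stood at 22.8 CPM at 1 month, 17.6, 0 and 22 CPM at 2 months and 15.4, 133 and 204 CPM at 6–8 months (2.41 ± 0.57, adjusted p = 0.023, edgeR). Without OPC-marked members it stood at 1.64 CPM, then 6.32, 0 and 15.2 CPM, then 11.7, 12.7 and 15.1 CPM, and was then detected in too few cells to be tested. S100b, whose level the rule limits and which is given as a description (23.4 CPM at 1 month against 17.3, 122 and 175 CPM) and Matn4 (44.0 against 40.4, 166 and 304 CPM) behaved alike, and in all 3 genes the first 6–8-month experiment lay below the 1-month one. Neither Cntn1 nor Matn4 passed when the second or the third 6–8-month experiment, or the third 2-month experiment, was left out. Lmo4 and Pcdh11x passed over all members (2.63 ± 0.41 and 2.31 ± 0.34, adjusted p = 0.00038 and 0.00024 with edgeR) and were too rare to be tested without OPC-marked members. Their levels in that set still differed, for Lmo4 at 4.91 CPM at 1 month against 31.1, 36.7 and 36.1 CPM, and for Pcdh11x at 4.30 against 38.9, 29.1 and 24.5 CPM.

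Leaving OPC-marked members out also brought in Gpr37 (2.05), Luzp2 (1.97), Timp4 (1.78), Slc4a4 (1.78) and Cxcl14 (1.70) among the 10 largest rises, all of which had passed with them as well (adjusted p between 0.00024 and 0.0067, edgeR). Fxyd6, a regulator of the sodium pump, was the largest fall (−2.99 ± 0.29, adjusted p = 2.7e-08, edgeR). It stood at 119 CPM at 1 month, 65.0, 71.6 and 75.8 CPM at 2 months and 17.5, 7.60 and 18.6 CPM at 6–8 months. Over all members the same gene stood at 132 CPM at 1 month and at 28.8, 103 and 150 CPM at 6–8 months, and the difference did not pass (−0.44, adjusted p = 0.82). A730017C20Rik also fell without OPC-marked members (−1.93, adjusted p = 7.3e-05) and not with them (−0.88, adjusted p = 0.18).

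Among the falls, Id3 (chr4:136143497-136145755, plus strand) and Id1 (chr2:152736251-152737410, plus strand) encode inhibitors of basic helix-loop-helix factors that BMP signaling induces. Id3 stood at 415 CPM at 1 month, 151, 148 and 227 CPM at 2 months and 23.1, 90.0 and 81.3 CPM at 6–8 months, and the 3 ages did not overlap. It fell by 2.64 ± 0.30 on the log2 scale (adjusted p = 1.5e-05 with edgeR, −2.65 without OPC-marked members). Id1 stood at 149 CPM at 1 month, 80.1, 66.8 and 73.3 CPM at 2 months and 26.9, 50.1 and 42.1 CPM at 6–8 months, likewise without overlap (−1.92 ± 0.26, adjusted p = 8.6e-05, edgeR). In thinned cells, with OPC-marked members left out, Id3 was found in 36.0% of members at 1 month, 16.3, 10.2 and 21.6% at 2 months and 4.65, 7.25 and 9.09% at 6–8 months. In the same cells Id1 was found in 18.8%, then 11.7, 14.3 and 5.88%, then 3.10, 6.52 and 5.68%. The other Id genes did not pass: Id2 (173 CPM at 1 month; 78.9, 122 and 150 CPM at 6–8 months) gave −0.58 (adjusted p = 0.51) and Id4 (chr13:48261228-48266026; 952 CPM; 967, 788 and 929 CPM) gave −0.14 (adjusted p = 0.96).

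Ifitm2 (chr7:140954837-140955987, minus strand), an interferon-induced membrane protein, stood at 58.9 CPM at 1 month and at 0, 8.19 and 15 CPM at 6–8 months (−2.55 ± 0.40, adjusted p = 0.00043, edgeR). The count of 0 allows up to 5.77 CPM in that experiment. Tfap2c, a transcription factor of activating NSCs and progenitors, stood at 65.0 CPM at 1 month and 40.4, 13.3 and 15.8 CPM at 6–8 months (−1.78 ± 0.39, adjusted p = 0.013). Nes, the intermediate filament gene whose promoter drives the GFP transgene, went from 52.8 to 13.5, 23.5 and 18.8 CPM (−1.53 ± 0.33, adjusted p = 0.011), but its 2-month levels of 19.4, 4.77 and 7.33 CPM were as low. Ucp2 (−1.71, adjusted p = 0.0020), Ccdc80 (−1.55, 0.0030), Hddc3 (−1.55, 0.0081), Pigz (−1.61, 0.010) and Gm10076 (−1.71, 0.026) also fell, all by the same edgeR fit and all also without OPC-marked members. When the third 6–8-month experiment was left out, Tfap2c, Nes, Ccdc80, Hddc3, Pigz and Gm10076 no longer passed, Tfap2c and Hddc3 did not pass without the second, and Gm10076 did not pass without the third 2-month experiment either. Id3, Id1, Ifitm2 and Ucp2 passed whichever of these experiments was left out, and over the alternatives with all members the largest adjusted p was 0.0038 for Id3, 0.010 for Id1 and 0.010 for Ifitm2. Without OPC-marked members Ifitm2 did not pass with DESeq2 (adjusted p = 0.95).

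**Figure D4:**
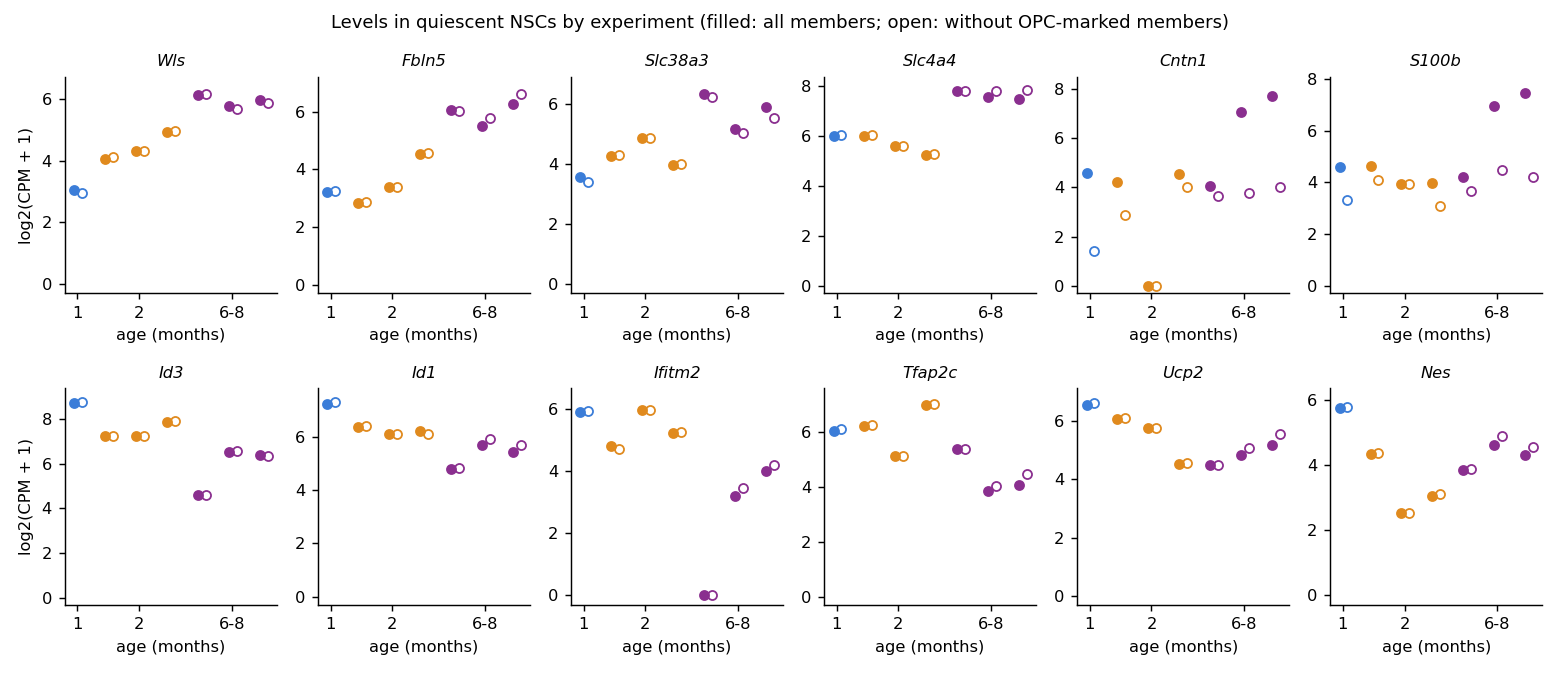
Levels of 12 genes in quiescent NSCs as log2(CPM + 1), 1 point per experiment by age (1 month blue, 2 months orange, 6–8 months purple), filled for all members and open without OPC-marked members. Wls, Fbln5, Slc38a3 and Slc4a4 were higher and Id3, Id1 and Ifitm2 lower in every 6–8-month experiment than at 1 month with both sets of members, whereas the high values of Cntn1 and S100b in 2 experiments of 6–8 months were lost once OPC-marked members were left out.

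Markers and factors of quiescence and activation were compared between 6–8 months and 1 month. The levels of the rule's own genes were conditioned by the selection, and their fitted log2 differences are given as a description with no test. The difference was −0.22 for Hopx, which every member had to hold. It was −0.21 for Aldoc and 0.21 for Slc1a3, among the 5 astroglial genes of which at least 3 were needed. Among the limited genes it was 1.60 for Gjb6 and 2.21 for S100b. Outside the rule, Notch2 did not pass (0.01, adjusted p = 1.0, edgeR). Riiad1 passed over all members (−1.08 ± 0.25, adjusted p = 0.023) and not without OPC-marked members (−0.85, adjusted p = 0.065), nor over all members when the second or the third 6–8-month experiment was left out. Apoe stood at 25600 CPM at 1 month and 27400, 21200 and 19000 CPM at 6–8 months (−0.22, adjusted p = 0.95), and Clu at 2760 against 3020, 2380 and 2520 CPM (−0.11, 0.97). Huwe1, a ubiquitin ligase, stood at 64.2 CPM at 1 month and 94.2, 72.6 and 82.1 CPM at 6–8 months (0.30 ± 0.29, adjusted p = 0.88), and Ccnd2 at 163 against 260, 236 and 186 CPM (0.42 ± 0.27, adjusted p = 0.72).

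Gene lists are described by how many of their tested genes passed between 6–8 months and 1 month, beside a median log2 difference of 0.02 over all genes tested, of which 1.02% passed upward and 0.43% downward (1.23 and 0.54% without OPC-marked members). Some medians rest partly on genes of the rule, which are Hopx, Aldoc and Slc1a3 among NSC markers, Slc1a2, Slc1a3, Gja1, Aqp4 and Gjb6 among transport genes, Aldoc in glycolysis and Hopx among quiescence factors. Of 28 NSC markers, 24 were tested, none passed upward and 5 passed downward (Tfap2c, Nes, 1500015O10Rik, Riiad1 and Vim; list median −0.29), and without OPC-marked members 4 passed downward, with Fabp7 in place of Riiad1 and Vim. Over all members 1 NSC marker passed downward with total UMIs and 2 with DESeq2. Of 16 astrocyte markers 11 were tested, with medians of 0.46 and, without OPC-marked members, 0.52. The rule limits 5 genes of this list, among them the ones past the threshold over all members (Gjb6 and S100b), so the medians are a description. Without OPC-marked members the GABA transporter gene Slc6a11, which the rule did not use, also rose (1.07). Of 28 genes of transport and channels 21 were tested and 3 passed upward (Slc4a4, Fxyd7 and the rule's own Gjb6; median 0.58; 2 with total UMIs and 2 with DESeq2). Without OPC-marked members 8 of 22 passed upward (4 with DESeq2), Gjb6 included, among them the glutamate receptor subunits Gria1 and Gria2 and the glycine transporter Slc6a9, and Fxyd6 fell. Of 31 genes of extracellular matrix and adhesion 18 were tested, Fbln5, Timp4 and Cadm1 rose and Tnc fell (median 0.39). Tnc stood at 115 CPM at 1 month and 38.5, 38.9 and 47.9 CPM at 6–8 months (−1.48 ± 0.26, adjusted p = 0.0020).

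Among signaling lists, 2 of 7 tested BMP and Id genes passed, Id1 and Id3, both downward (median −0.14). None of 9 Notch genes passed with edgeR over all members (3 had an unadjusted p under 0.05, none by DESeq2), and Jag1, a Notch ligand, rose without OPC-marked members (1.23, adjusted p = 0.037), where DESeq2 called 0 genes of the list. None of 10 Wnt genes passed either (3 unadjusted, none by DESeq2), and without OPC-marked members Wnt7b (1.13, adjusted p = 0.028) and Tcf7l2 (1.11, adjusted p = 0.012) rose with edgeR, and DESeq2 again called 0. Of 10 growth factor receptors Fgfr3 rose, from 54.8 to 138, 95.2 and 132 CPM (1.09 ± 0.28, adjusted p = 0.047 with edgeR; 0 genes of the list passed with total UMIs or with DESeq2), and Egfr also rose without OPC-marked members (1.49, adjusted p = 0.011). Of 8 tested interferon and antigen presentation genes Ifitm3 fell (−1.10 ± 0.26, adjusted p = 0.025 with edgeR), and 0 passed with total UMIs or with DESeq2.

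Metabolic lists had no gene that passed over all members, by edgeR or by DESeq2. These were 18 genes of fatty acid oxidation (2 with an unadjusted p under 0.05), 20 of lipid and sterol synthesis (6, all lower), 21 of the lysosome (0), 13 of glycolysis (1) and 37 of oxidative phosphorylation (0), with medians between −0.23 and 0.05. The median of glycolysis was −0.07, and 0.02 when samples were scaled by total UMIs. Without OPC-marked members Fabp7, a fatty acid binding protein of radial glia, fell (3400 to 2080, 1790 and 1880 CPM, −0.85, adjusted p = 0.043). Of 79 ribosomal protein genes none passed (35 with an unadjusted p under 0.05, all lower; none by DESeq2), yet 77 of 79 estimates were below 0, with a median of −0.45 (−0.37 when scaled by total UMIs). Neither the 16 tested quiescence factors nor the 7 proneural and ubiquitin genes held any that passed over all members, with none at an unadjusted p under 0.05 and none by DESeq2. Without OPC-marked members none passed either by edgeR or by DESeq2, but 4 of the 16 quiescence factors, all higher, had an unadjusted p under 0.05. Of 10 tested immediate early genes none passed (2 unadjusted, none by DESeq2; median 0.60), and of 5 tested genes of G1 and the cell cycle none did (1 unadjusted, none by DESeq2).

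**Figure D5:**
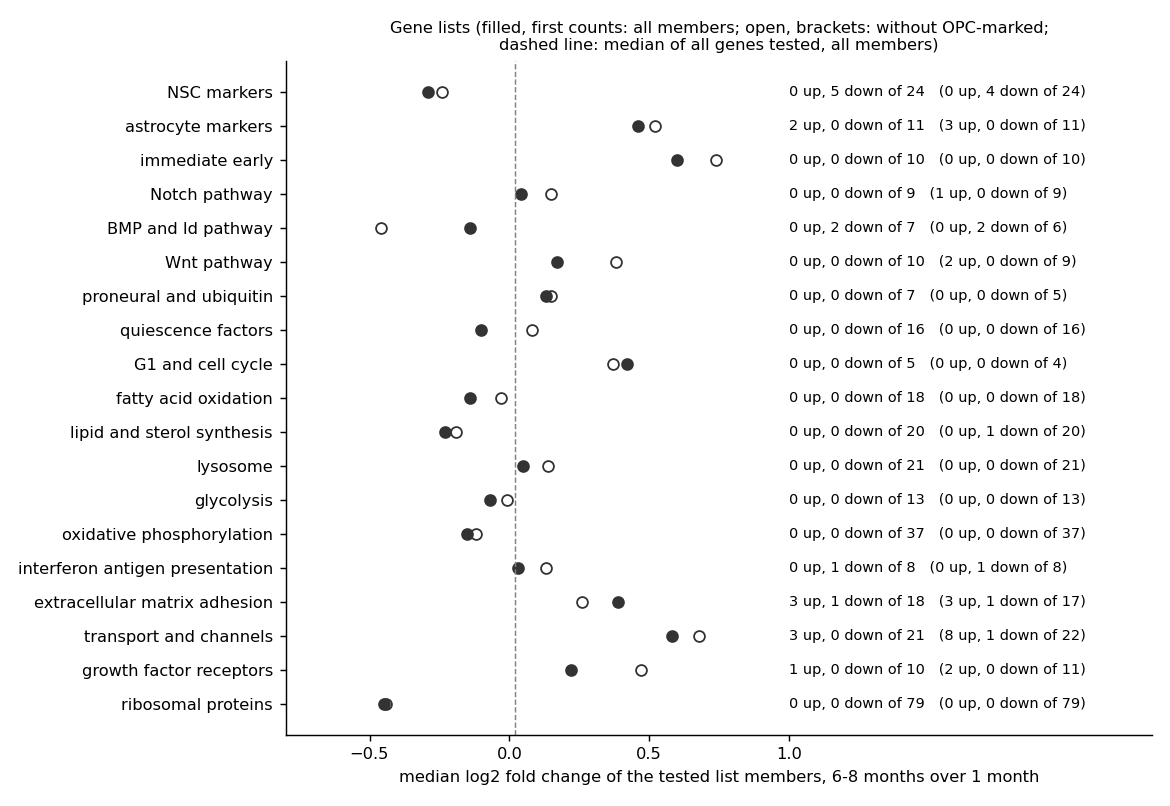
Median log2 fold change between 6–8 months and 1 month of the tested genes of 19 lists in quiescent NSCs, filled for all members and open without OPC-marked members, with the numbers of genes that rose and fell among those tested at the right (brackets: without OPC-marked members). The dashed line is the median of all genes tested (0.02); ribosomal proteins lay to its left, as did NSC markers, and transport and channel genes to its right, and these last lists hold genes of the rule.

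Against 2 months, where each age has 3 experiments but age and chemistry cannot be told apart, 800 of 4296 genes passed, 415 higher (9.66%) and 385 lower (8.96%) at 6–8 months, and 795 of 3871 without OPC-marked members (414 higher, 10.7%; 381 lower, 9.84%; 632 shared). The 800 include 3 genes of the rule (Hopx, Ntsr2 and S100b) and the 795 also 3 (Hopx, Hsd11b1 and Slc1a2), for which this is no test. Scaled by total UMIs, 498 of 742 calls were higher (67.1%, against 51.9% with TMM), and the median over all genes moved from 0.00149 to 0.109. The count was 451 without the third and 481 without the second 6–8-month experiment, and without OPC-marked members 515 without the third. Gm42418 and AY036118, which lie in ribosomal RNA sequence, rose by 5.52 ± 0.33 and 4.26 ± 0.47 (adjusted p = 1.6e-11 and 6.4e-07, edgeR), mt-Atp8 rose by 3.50 while mt-Nd1 fell by 2.25, and Rpl23a and Rpl13a fell by 2.84 and 2.59. Of 79 ribosomal protein genes 45 fell and 1 rose. The myelin gene Mbp also fell (−2.62), which moved with the 57 members of the second 2-month experiment that held oligodendrocyte markers; their part in the result was not tested.

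Set beside the contrast with 1 month, which shares its 6–8-month experiments, some genes had values on the same side and some did not. Fbln5 rose by 2.78 (adjusted p = 5.6e-05), Wls by 1.63 (0.0012), Slc4a4 by 1.69 (2.5e-05) and Luzp2 by 1.69 (3.4e-06) over 2 months. Id3 fell by 1.36 (adjusted p = 0.0012) and Riiad1 by 1.29 (0.00020). Cadm1 (0.01, 0.98) and Fgfr3 (−0.48, 0.13), which were higher than at 1 month, did not pass against 2 months. Id2 (−1.58, adjusted p = 1.3e-05) and Id4 (−1.42, 9e-06) passed against 2 months (edgeR) and not against 1 month. The fitted difference of Hopx, which every member had to hold, was 2.20 and is a description with no test; of the members without OPC markers, 36.3% in Version 2 libraries and 0.494% in Version 3 libraries had exactly 1 UMI of Hopx. For these 3 genes the 1-month level lay with 6–8 months rather than with 2 months. Ccnd2 fell by 0.74 over 2 months (adjusted p = 0.012; −0.50 and 0.049 without OPC-marked members).

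The transgene itself was read as eGFP. It stood at 1920 CPM at 1 month, 965, 2180 and 2130 CPM at 2 months and 1030, 939 and 606 CPM at 6–8 months (−1.21 ± 0.32, adjusted p = 0.056 with edgeR over all members, −1.13 and 0.019 without OPC-marked members, against 1 month). DESeq2 called 0 genes of the reporter list in either set. With OPC-marked members left out, eGFP was detected in 76.4% of thinned members against 0.149% of microglia-like and 20.7% of oligodendrocyte-like cells. The intact reporter locus, read as tdTomatoLoxP, was abundant in every experiment, at 2930 CPM, then 2230, 1380 and 1300 CPM, then 3290, 3140 and 3090 CPM. WPRE, transcribed after recombination, stood at 58.9 CPM at 1 month, 42.2, 81.1 and 147 CPM at 2 months and 88.5, 95.2 and 79.6 CPM at 6–8 months (0.51 ± 0.33, adjusted p = 0.72).

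Whether age differences were larger in members than in astrocyte-like cells of the same experiments was tested by an interaction with the experiment as a block. As designed, 303 of 5983 genes differed between 6–8 months and 1 month, 288 with the larger change toward higher values in members (4.81%) and 15 the other way (0.251%). Left without OPC-marked cells, which were 26.5% of the astrocyte-like cells at 1 month and 30.8, 68.6 and 74.9% at 6–8 months, 43 of 4379 differed (39, 0.891%, and 4, 0.0913%), 36 of them shared with the 303. The count of 303 became 17 without the second and 27 without the third 6–8-month experiment, 685 without the first and 190 without the second 2-month experiment, and the 43 became 14 without the third 6–8-month and 69 without the third 2-month experiment. Of these 43, Slc4a4 (1.76, adjusted p = 7.8e-09) and Timp4 (1.64, 1.3e-07) rose more with age in members, on the edgeR log2 scale. The counts include genes of the rule, 8 among the 303 and 3 among the 43 (Gja1, Gjb6 and Hsd11b1), for which the interaction is no test. On simulated counts the interaction without OPC-marked cells recovered 6.3% of genes changed by a log2 of 2. A gene that did not pass is therefore not shown to change alike in both groups. For Wls (0.87, adjusted p = 0.71), Fbln5 (0.08, 1.0), Id3 (−0.93, 0.14) and Id1 (−0.21, 0.93) the difference in age effect between members and astrocyte-like cells did not pass without OPC-marked cells.

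The same interaction against 2 months, in which an effect of chemistry common to both cell groups drops out, gave 1105 of 5849 genes with all cells (702 toward higher values in members, 12%; 403, 6.89%) and 91 of 4058 without OPC-marked cells (45, 1.11%; 46, 1.13%; 69 shared), of which 10 and 4 were genes of the rule. Scaled by total UMIs, 504 of 1270 calls with all cells went toward higher values in members (39.7%, against 63.5% with TMM), and the median over all genes moved from −0.0273 to −0.232. Without the first 2-month experiment 226 genes passed with all cells and 10 without OPC-marked cells. Without the second or the third 6–8-month experiment the counts were 554 and 563 with all cells, and without the third 43 without OPC-marked cells. Gria1, a glutamate receptor subunit, rose more in members (2.13, adjusted p = 0.0053, edgeR) without OPC-marked cells. Cntnap2 (−2.47, adjusted p = 0.00092), the Wnt inhibitor Frzb (−2.23, 0.00014), Shroom3 (−2.02, 0.00092) and Sfrp1 (−1.83, 0.032) went the other way.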

How the data were processed

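Single-cell RNA from sorted DG cells was sequenced by 10x Genomics droplets in 8 libraries. The authors aligned reads with Cell Ranger 3.0.2 to mm10 with reporter sequences added (cutadapt 1.18 is also named in the submitters' processing notes) and deposited UMI counts of 31058 genes, merged without normalization. All columns were assigned to libraries by their names, with 0 left unassigned.

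Members, gene lists and named genes were chosen with earlier results of these data known. Named genes were those of known NSC markers and factors, the 10 largest rises and falls past the threshold (mean of 50 CPM or more at either age), the 5 largest interactions each way, the largest folds over other cells, and the 15 largest Fano factors; others in the text, such as Luzp2 and Fxyd6, were picked after their values were seen. Doublets were limited by the other-lineage clause alone. UMIs of the libraries of 1 experiment were summed, and the 7 experiments were the replicates. P-values rest on the spread between experiments of the same age at 2 and 6–8 months. The lone 1-month experiment was assumed to vary like these and adds no measure of spread. Genes detected in 20% or more of an age's members were fitted with edgeR 4.0.16 (TMM, quasi-likelihood; R 4.3.3), with DESeq2 1.42.0 as an alternative. In tests on simulated counts with 200 genes changed by a log2 of 2, 56.3% were recovered between 6–8 months and 1 month, 90.9% between 6–8 and 2 months, and 3.3 and 36.1% in the interactions. The simulation gave every gene a dispersion of 0.1, over 5 draws. How near this lies to the spread of the data was not tested, so the rates hold for that setting alone. Folds between cell groups used CPM with a pseudocount of 1. Thinning took 1500 UMIs per cell. Gene positions are from GENCODE M21 (GRCm38). Some genes are not reported here.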

Additional observations from a re-analysis of the deposited data

Results flagged for a closer look

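The results below stood out because the change with age differed between quiescent NSCs and astrocyte-like cells of the same experiments, by the edgeR interaction (log2, 6–8 months against the younger age, members minus astrocyte-like cells). Gjb6 and Hsd11b1 are among the genes by which the 2 groups were parted, so their values are a description and no test of a difference. Against 1 month the 5 largest positive differences were those of Gjb6, the connexin 30 gene (2.98), the bicarbonate cotransporter Slc4a4 (2.81), the steroid enzyme Hsd11b1 (2.45), the selenium carrier Selenop (2.42) and the protease inhibitor Timp4 (2.25). The 5 largest negative ones were A730017C20Rik (−2.15), the prostaglandin synthase Ptgds (−1.94), Lima1 (−1.29), Cpxm1 (−1.22) and C1qtnf4 (−1.09). Without OPC-marked cells the positive values were 1.87, 1.76, 1.33, 1.30 and 1.64 in the same order. A730017C20Rik (−2.02, adjusted p = 0.14 with edgeR), Ptgds (−1.47, 0.11) and Lima1 (−1.01, 0.27) did not then pass, nor did Cpxm1 (−0.54, 0.80) or C1qtnf4 (−1.03, 0.64).

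Against 2 months the positive differences were those of Gjb6 (3.21), the phospholipid transfer protein gene Pltp (2.78), Gria1 (2.77), Slc4a4 (2.75) and Hsd11b1 (2.66), and the negative ones those of Creg2 (−3.41), the microtubule protein gene Map1b (−2.83), Calcrl (−2.63), Tmem59l (−2.51) and Tox3 (−2.47). Without OPC-marked cells Gria1 (2.13, adjusted p = 0.0053 with edgeR) and Slc4a4 (1.12, 0.00044) passed, and Gjb6 and Hsd11b1 gave 1.47 and 0.89. Pltp (0.91, adjusted p = 0.18), Map1b (−1.28, 0.24), Calcrl (−1.04, 0.46), Tmem59l (−2.18, 0.057) and Tox3 (−1.28, 0.18) did not then pass, and Creg2 was not tested. OPC-marked cells were 68.6 and 74.9% of the astrocyte-like cells in the second and the third 6–8-month experiment and between 4.19 and 31.9% in the other 5.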

How the results depend on the processing

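Counts below are genes past 0.05. Of all values recomputed for the 20 genes named for the contrast of 6–8 months with 1 month, 256 of 309 kept the call, 53 lost it and 0 reversed; for the 10 genes of its interaction with astrocyte-like cells, 126 of 154 kept it, 28 lost it and 0 reversed. These totals include the rule genes S100b, Gjb6 and Hsd11b1, for which no call is a test. Members numbered 1330 when no cell-cycle gene was allowed. Between 6–8 months and 1 month (64), the count was 31 with total UMIs, 22 with DESeq2, 317 without a filter on low counts, 6 in thinned cells, 28 in members without Fbln5, and 17 to 117 with 1 experiment left out; without OPC-marked members (72), it was 26 with DESeq2, 138 without a filter, 8 in thinned cells, 150 with the 4 Version 3 experiments alone and 28 to 142 with 1 experiment left out. Between 6–8 and 2 months (800), it was 512 with DESeq2, 1247 without a filter, 281 in thinned cells, 451 in members with no other-lineage and no cell-cycle gene, and 451 to 801 with 1 experiment left out; without OPC-marked members (795), 489, 264 in thinned cells, and 515 to 792. In the interaction against 1 month (303), it was 37 with DESeq2, 490 without a filter, 511 with filterByExpr, 37 in thinned cells, 25 with no other-lineage and no cell-cycle gene, 191 without Fbln5, 43 without OPC-marked cells and 17 to 685 with 1 experiment left out; without OPC-marked cells (43), 5 with DESeq2, 7 in thinned cells and 14 to 69. In the interaction against 2 months (1105), it was 635 with DESeq2, 318 in thinned cells, 50 with no other-lineage and no cell-cycle gene, 91 without OPC-marked cells and 226 to 1427 with 1 experiment left out; without OPC-marked cells (91), 23 with DESeq2, 30 in thinned cells, 31 without the tdTomato+ library and 10 to 134. Genes at least 2-fold above all other cells (214) numbered 216 to 249 with 1 experiment left out. Fewer molecules in thinned cells, fewer samples or a changed number of genes tested enter these counts by construction; other causes were not tested. No paired analysis was possible because the ages are different animals and their replicate numbers mark no shared day or litter; the interactions carried the experiment as a block. Leaving out the only 1-month experiment gives no value against 1 month. Depth limits the second and the third 2-month experiment most.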
